A study of Homo sapiens with 3 samples.

Results

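The genes described here are 10 human genes of bile acid transport and signaling, out of 27274 gene names on the array: SLC10A1, SLCO1B1, SLCO1B3, ABCB11, ABCB4, NR1H4, NR0B2, FGF19, BAAT and SLC27A5. They were chosen by name, and every probe that carried one of these names was taken, which gave 1 probe of 60 bases and 1 spot for each gene. The cells were HepG2, an established line from a human liver cancer that keeps wild-type p53 and many hepatocyte functions. Etoposide, an anticancer drug that traps topoisomerase II and leaves DNA double-strand breaks, was given for 30 h at 10 μM (the low dose) or 100 μM (the high dose). Control cells received 0 μM and are labelled untreated, whereas a table of the study names the solvent DMSO in their place. All groups therefore share 1 cell line and 1 time point, and each is 1 culture on 1 array. The study used the low dose to induce senescence and the high dose to induce apoptosis, and the comparisons below ask how the bile acid genes stood in each of these conditions.

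Bile acids are made from cholesterol in hepatocytes, conjugated to glycine or taurine, secreted into bile, reabsorbed in the ileum and taken up again from portal blood. The nuclear receptor FXR, encoded by NR1H4, binds bile acids and switches on genes for their export together with NR0B2, which encodes the corepressor SHP, and SHP in turn limits bile acid synthesis. FGF19, a hormone released by the ileum, gives a further signal against synthesis through FGFR4 and its partner KLB on the hepatocyte.

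Every level below rests on 1 probe, so the start of the probe is shown for the 5 genes that gave a usable signal, as 30 of its 60 bases, 5′ to 3′, all in lower case because no base is singled out.
SLC10A1: aaactagagagagcagcaaaaacaccagtc
ABCB4: cagtgtccaggctgggacacagaacttatg
NR1H4: ctgagatgctgatgtcatggagagtaaacg
NR0B2: gggcaagcctgtatagacagcacttggctc
SLC27A5: ccataccctcaacctcagtgggctggaaat
In the array annotation, on hg18, the whole SLC10A1 probe lies at chr14:69312635-69312694 on the minus strand and the NR1H4 probe at chr12:99481322-99481381 on the plus strand. The probe for ABCB4 is placed at chr7:86869319-86869378, the one for NR0B2 at chr1:27110770-27110829 and the one for SLC27A5 at chr19:63701533-63701592, each on the minus strand. Exon and UTR positions on this build were not analysed here. The GC content of the 10 probes ran from 35.0% for ABCB4 and BAAT to 55.0% for NR0B2 and SLC27A5.

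Between 19836 and 20153 of 34127 probes were well above background on each array by the call of the scanner software, and 0 spots were saturated. The p53 targets CDKN1A, the cell cycle inhibitor p21, and MDM2, the ubiquitin ligase of p53, stood at 7.94-fold and 7.03-fold of the control signal with 10 μM, and at 7.07-fold and 3.19-fold with 100 μM. The 5 hepatocyte markers ALB, TTR, APOA1, SERPINA1 and HNF4A and the hepatoma markers AFP and GPC3 were well above background on all 3 arrays, whereas the fibroblast markers COL1A1, COL1A2 and DCN were so on 0 arrays. Each dose had 1 array, so differences between arrays could not be set against replicates and p-values are not given. The error given is the spread between spots of the same probe on 1 array, which leaves out differences between cultures and RNA preparations. In these bulk samples, fewer cells that express a gene and less RNA in each cell cannot be told apart.

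Of the 10 genes, 5 were well above background on all 3 arrays (SLC10A1, ABCB4, NR1H4, NR0B2 and SLC27A5) and the other 5 on 0 arrays. By the same measure 55.7% of all gene names on the array were well above background throughout. Of a list of 74 other bile acid pathway genes, 57 (77.0%) were so, although only 72 of the 74 were on the array. The genes without a usable signal were SLCO1B1 and SLCO1B3, which encode uptake transporters of the hepatocyte for bile acids, bilirubin and drugs, ABCB11, which encodes the bile salt export pump, FGF19, and BAAT, which encodes the enzyme that joins bile acids to glycine or taurine. Their 15 signals ran from 3.82 to 7.59, of which 14 were substitute values set by the software in place of a measured one. The lowest signal called well above background was 19.5, 22.7 and 21.6 on the control, 10 μM and 100 μM arrays, so these genes were not detectable on any array and no fold change is given for them.

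**Figure D1:**
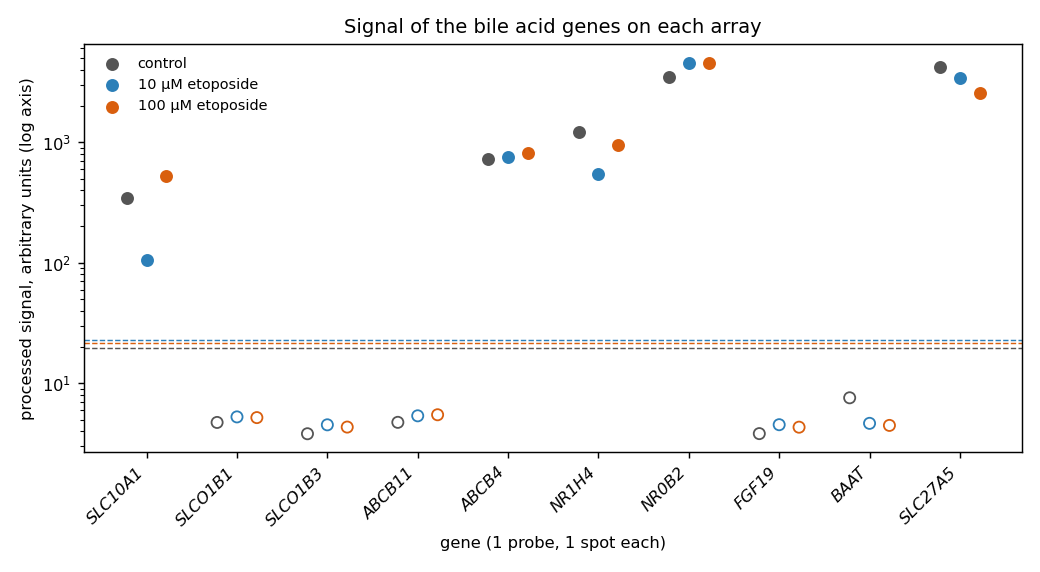
Processed signal of each of the 10 genes on the control, 10 μM and 100 μM arrays, on a log axis, with filled points well above background, open points not, and dashed lines at the lowest signal well above background of each array. SLC10A1 and NR1H4 have their lowest point at the low dose, and 5 genes lie below all 3 lines.

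SLC10A1 encodes NTCP, the sodium-dependent transporter that carries conjugated bile acids from blood into the hepatocyte. Its signal as deposited was 343 for control, 106 for 10 μM and 520 for 100 μM. Scaled to the control array by the 75th percentile, these became 343, 101 and 618. The low-dose array was thus the lowest and the high-dose array the highest. With 10 μM etoposide SLC10A1 was 3.39-fold below control (log2 -1.76, with a spot-to-spot SD of 0.11 for the log2 ratio), a gap of 15.8 times that SD. At the high dose it was 1.8-fold higher than in control cells (log2 0.85, SD 0.08), short of 2-fold. The low dose was 6.11-fold below the high dose (log2 -2.61, SD 0.11). Before any subtraction the mean pixel intensity of the SLC10A1 spot was 344, 150 and 503, over a local background of 24, 23 and 23 in the same order. The order of the arrays was therefore the same before background was taken away, with a smaller gap for the low dose.

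NR1H4, the gene of the bile acid receptor FXR, gave signals of 1217 for control, 548 for 10 μM and 946 for 100 μM, or 1217, 525 and 1124 after scaling. The low dose again held the lowest value, and with this scaling the control and high-dose values lay close to each other. The 10 μM level of NR1H4 was 2.32-fold below control (log2 -1.21, SD 0.07) and 2.14-fold below 100 μM (log2 -1.10, SD 0.08). Its high-dose level was 0.924 of the control level (log2 -0.11, SD 0.08), a gap of 1.51 times the spot-to-spot SD. That closeness rested on the scaling, since the log2 difference was -0.36 with no scaling, -0.40 with median scaling and -0.29 with spike-in scaling.

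NR0B2 encodes SHP, which lacks a DNA-binding domain and represses other nuclear receptors by binding to them, and it is a well known target of FXR. Its signals were 3484, 4579 and 4527 in control, low-dose and high-dose cells, or 3484, 4388 and 5383 after scaling. Both treated arrays were above the control array, by 1.26-fold at the low dose (log2 0.33, SD 0.06) and by 1.54-fold at the high dose (log2 0.63, SD 0.07). NR0B2 and NR1H4 thus lay on opposite sides of the control at the low dose. The order of the 2 doses for NR0B2 was not settled, because the log2 difference of low over high dose was -0.29 (SD 0.06) with scaling and 0.02 with none.

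ABCB4 encodes the flippase that brings phosphatidylcholine into bile, where it protects the ducts from bile acids. The signals of ABCB4 were 723, 757 and 818, or 723, 726 and 973 after scaling. Low-dose and control cells were alike within the spot-to-spot spread (log2 0.01, SD 0.07), whereas the high dose was 1.35-fold above control (log2 0.43, SD 0.08) and the low dose 1.34-fold below the high dose (log2 -0.42, SD 0.08). Both differences with the high dose depended on the scaling. High dose over control was log2 0.18 with no scaling and 0.14 with median scaling, and low over high dose was -0.11 and -0.16.

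SLC27A5 encodes the ligase that couples bile acids to coenzyme A before they are conjugated by BAAT. It gave signals of 4231, 3433 and 2548, or 4231, 3290 and 3029 after scaling, with both treated arrays below the control array. The difference was 1.29-fold for 10 μM (log2 -0.36, SD 0.07) and 1.4-fold for 100 μM (log2 -0.48, SD 0.07). The 2 doses differed by log2 0.12 (SD 0.07), or 1.76 times the spot-to-spot SD. This gap between the doses was log2 0.43 with no scaling, 0.39 with median scaling and 0.34 with spike-in scaling.

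**Figure D2:**
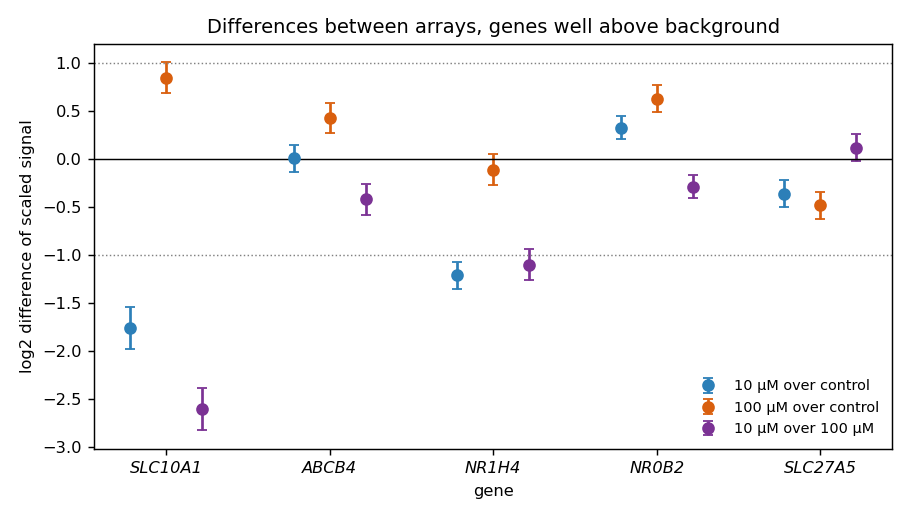
Log2 difference of the scaled signal for the 5 genes well above background, for 10 μM over control, 100 μM over control and 10 μM over 100 μM, with bars of 2 spot-to-spot SDs on each side and dotted lines at 2-fold. SLC10A1 at -1.76 and -2.61 and NR1H4 at -1.21 and -1.10 are the points below the lower dotted line.

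Comparing 10 μM with control, SLC10A1 and NR1H4 were lower by over 2-fold and 0 of the 5 measured genes were higher by as much. Over all 16664 genes measured in this comparison, 1.61% were lower by more than 2-fold and 3.38% were higher. SLC10A1 had the 13th lowest and NR1H4 the 83rd lowest difference of the 15449 genes well above background on both arrays. The median of the 5 measured genes was -0.36 on the log2 scale against -0.04 over all genes. They did not move together, since 2 lay above 0 and 3 below, from -1.76 for SLC10A1 to 0.33 for NR0B2.

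Comparing 100 μM with control, 0 of the 5 were past 2-fold in either direction, against 6.84% of all 16779 genes higher and 3.71% lower. With no scaling between arrays these shares of all genes turned to 3.76% higher and 6.35% lower. The median of the 5 was 0.43, against 0.10 over all genes, and their differences ran from -0.48 for SLC27A5 to 0.85 for SLC10A1.

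Between the doses, SLC10A1 and NR1H4 were over 2-fold lower with 10 μM than with 100 μM and 0 were higher, where 3.97% of all 16688 genes were lower and 3.66% higher. Without scaling, 1.72% of all genes were lower and 5.97% higher, and NR1H4 (log2 -0.79) was no longer past 2-fold. SLC10A1 had the 2nd lowest difference of 15435 genes well above background on both arrays and NR1H4 the 311th lowest. The median of the 5 was -0.42 against -0.11 over all genes. Taken relative to the median of all genes, SLC10A1 lay at -2.50 and NR1H4 at -0.99 between the doses, and at -1.72 and -1.17 for the low dose over control.

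**Figure D3:**
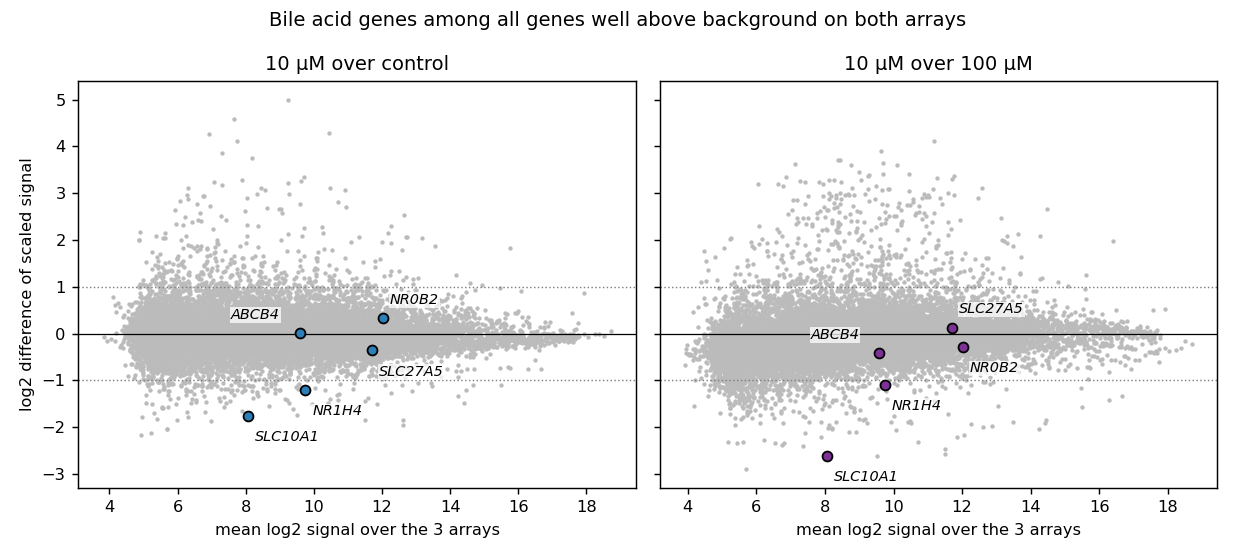
Log2 difference of the scaled signal against the mean log2 signal over the 3 arrays for every gene well above background on both arrays (grey), with the 5 measured bile acid genes marked, for 10 μM over control and for 10 μM over 100 μM; dotted lines mark 2-fold. SLC10A1 lies at the lower edge in both panels, at -1.76 and -2.61.

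With the processing used, SLC10A1 and NR1H4 shared a 10 μM level over 2-fold below both other arrays. This combination was noticed in these values and not chosen beforehand, and with that processing it was met by 99 of 16135 genes (0.614%). For NR1H4 it depended on the processing. Its log2 difference of low over high dose was -0.79 with no scaling, -0.83 with median scaling and -0.87 with spike-in scaling. With normexp, a background correction, it was -0.96. These values are short of 2-fold, whereas SLC10A1 stayed past 2-fold below both arrays there. All comparisons with the low dose use the same low-dose array, so the values in them are not independent. Markers of other cell types moved in different directions. All 3 leukocyte markers were well above background on all arrays. PTPRC had signals of 257, 131 and 288 in control, 10 μM and 100 μM cells and CD3E of 46.8, 34.6 and 52.9, both lowest with 10 μM, whereas CD14 had 521, 1184 and 1847. The summed signal of the 3 probes was 825, 1350 and 2188, and its increase was that of CD14. Of the remaining markers, 3 of 5 for cholangiocytes, 2 of 3 for endothelium and 1 of 3 for ileal enterocytes passed the background call on all arrays, with summed signals of 10322 to 11616, 354 to 530 and 4906 to 5711. The ileal marker VIL1 was also lowest with 10 μM (5698, 4880 and 5304), and FABP6, the ileal bile acid binding gene, passed on 0 arrays. The samples were cultures of the HepG2 line, so the marker signals are levels in that line and not shares of other cell types. Any link of these signals to the values of SLC10A1 and NR1H4 was not tested.

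The promoters of SLC10A1 and NR1H4 are shown because these genes of the 10 were over 2-fold below control at the low dose. Each covers 250 bases before to 50 bases after the gene start in RefSeq on GRCh38.p14, at chr14:69797192-69797491 on the minus strand for SLC10A1 and at chr12:100503110-100503409 on the plus strand for NR1H4, and is written 5′ to 3′ along the gene. Capitals mark AGGTCA, the half-site of many nuclear receptors, and GTTAAT, a half-site of HNF1, on either strand.
SLC10A1: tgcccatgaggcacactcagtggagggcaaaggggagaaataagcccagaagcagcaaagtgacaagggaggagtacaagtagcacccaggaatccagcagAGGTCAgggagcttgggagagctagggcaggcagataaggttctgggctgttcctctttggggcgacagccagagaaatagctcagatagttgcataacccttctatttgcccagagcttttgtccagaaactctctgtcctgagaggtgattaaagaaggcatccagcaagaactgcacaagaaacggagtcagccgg
NR1H4: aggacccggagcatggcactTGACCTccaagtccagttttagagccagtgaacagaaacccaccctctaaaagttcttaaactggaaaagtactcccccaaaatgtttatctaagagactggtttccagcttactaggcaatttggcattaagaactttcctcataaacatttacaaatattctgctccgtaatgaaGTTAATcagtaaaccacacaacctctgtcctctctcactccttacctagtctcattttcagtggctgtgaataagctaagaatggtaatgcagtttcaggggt
In SLC10A1 the AGGTCA match starts 149 bases before the gene start on the strand of the gene. In NR1H4 there is an AGGTCA match on the opposite strand 230 bases before the start and a GTTAAT match on the gene's strand 53 bases before it. A promoter was found for 7 of the 10 genes, 8 in all since BAAT has 2, and a gene counts where any of its promoters held the letters. AGGTCA was in 4 of the 7 (SLC10A1, SLCO1B3, NR1H4 and 1 of the 2 BAAT promoters), or 4 of 8 promoters, against 13.8% of 35116 promoters of the same length. GTTAAT was in 3 of the 7 (SLCO1B1, SLCO1B3 and NR1H4) and in 6.88% of all promoters. SLCO1B1 and SLCO1B3 are genes of the same family whose promoters read alike around a GTTAAT match, so they are not independent counts. The GC content of these promoters was 31.3% and 30.0%. A half-site of p53, searched by its consensus, was in SLCO1B1 and BAAT and in 6.63% of all promoters, and the longer LRH-1 form CAAGGTCA, which contains AGGTCA, was in 0 of the 7 and in 1.28% of all. CCAAT was in 4 of the 7 and 34.6% of all, TATAAA in 2 of the 7 and 11.5% of all, and the perfect inverted repeat of AGGTCA with 1 base between, the usual FXR element, in 0 of 35116. These matches are letters in a window and were not tested as binding sites.

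The rest of the pathway was described by a list of 74 genes, of which 70 were on the array under the listed symbol, SLC51A and SLC51B under the older names OSTalpha and OSTbeta, and 57 passed the background call on all 3 arrays. Comparing 10 μM with control, 0 of the 61 measured were higher and 1 was lower by over 2-fold, or 1.64%, near the 1.61% of all genes. Of the 61, 45 lay below 0, where 54.6% of all genes did, and the median was -0.21 against -0.04 over all genes. With 100 μM 3 were higher (4.92%, against 6.84% of all genes) and 0 lower. The median there was 0.19 against 0.10 over all genes, and its sign turned with no scaling (-0.10), median scaling (-0.14) and spike-in scaling (-0.02). Between the doses, 8 of 60 (13.3%) were lower with 10 μM, against 3.97% of all genes, 0 were higher and the median was -0.41 against -0.11 over all genes. That count rested on the scaling, since 0 of these genes were past 2-fold with no scaling, median scaling or spike-in scaling.

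Among 16 genes of bile acid synthesis, CYP7A1, which opens the classic pathway, was well above background on 0 arrays, as were CYP7B1 and CYP46A1. CYP8B1, the enzyme that sets the share of cholic acid, had signals of 134, 156 and 255, and was 2.25-fold above control with 100 μM and 2.03-fold lower with 10 μM than with 100 μM. Without scaling these log2 differences of CYP8B1 were 0.92 and -0.71, both short of 2-fold. CYP39A1, an oxysterol hydroxylase, was the highest of the list at the low dose, at 1.6-fold of control, with signals of 77.5, 130 and 74.3. The median of the 13 measured synthesis genes was -0.33 with 10 μM and 0.06 with 100 μM.

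Of 19 other transporters, 13 were well above background on all arrays, and SLC10A2, the ileal relative of SLC10A1, was so on 0. With 100 μM, 0 of them were past 2-fold. Among genes whose products can move bile acids out of the hepatocyte towards blood, ABCC3 was at 2.0-fold of control, SLC51A at 1.9-fold and SLC51B at 1.7-fold, whereas ABCC4 was 1.47-fold lower. SLCO2B1, an uptake transporter of the same family as SLCO1B1 and SLCO1B3, had signals of 1212, 1203 and 2008 and was 2.07-fold lower with 10 μM than with 100 μM. ABCC2, the canalicular export pump of conjugates, was at 0.992 of control at both doses. The median of the 14 measured transporters was -0.09 with 10 μM and 0.46 with 100 μM, beside -0.04 and 0.10 over all genes.

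All 29 receptors and regulators were measured on at least 1 array, and 22 of them lay below control at the low dose, beside 54.6% of all genes. RXRA, the partner with which FXR binds DNA, was 1.62-fold lower at the low dose (signals of 2172, 1401 and 1605). PPARGC1A, a coactivator of FXR and HNF4A, was 1.99-fold lower (434, 228 and 301), and HNF4A, a liver transcription factor, was 1.74-fold lower at signals close to background (50.7, 30.4 and 53.7). PRMT1, an arginine methyltransferase, was 1.76-fold below control with 10 μM and 1.9-fold below with 100 μM, and the corepressor subunit GPS2 was 1.39-fold higher at the low dose. With 100 μM, ONECUT1, a liver transcription factor, was 2.66-fold higher than control, also at signals close to background (34.6, 43.1 and 77.4). The bile acid receptor GPBAR1 was at least 2.55-fold higher than control with 100 μM, since its control signal was not well above background.

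Between the doses, 6 of 28 measured regulators were over 2-fold lower with 10 μM, beside 3.97% of all genes, and 0 without scaling. They were SMARCA4, the motor subunit of a chromatin remodeling complex, at 2.25-fold, ONECUT1 at 2.23-fold, HNF4A at 2.19-fold, GPBAR1 at 2.16-fold, KLB at 2.1-fold and the xenobiotic receptor NR1I3 at least 2.01-fold. KLB, which with FGFR4 receives FGF19, had signals of 935, 611 and 1033. SIRT1, a deacetylase that acts on FXR, stood on the other side, 1.36-fold higher with 10 μM than with 100 μM. It lay below control at both doses, at log2 -0.21 with 10 μM and -0.65 with 100 μM.

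Of 10 genes of conjugation and clearance, 5 were measured. GSTA2, a glutathione transferase that also binds bile acids, was the gene of the list over 2-fold below control with 10 μM, at 2.29-fold (signals of 241, 110 and 137). SULT2A1, the sulfotransferase of bile acids, was 1.38-fold above control with 10 μM and 1.45-fold above with 100 μM.

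**Figure D4:**
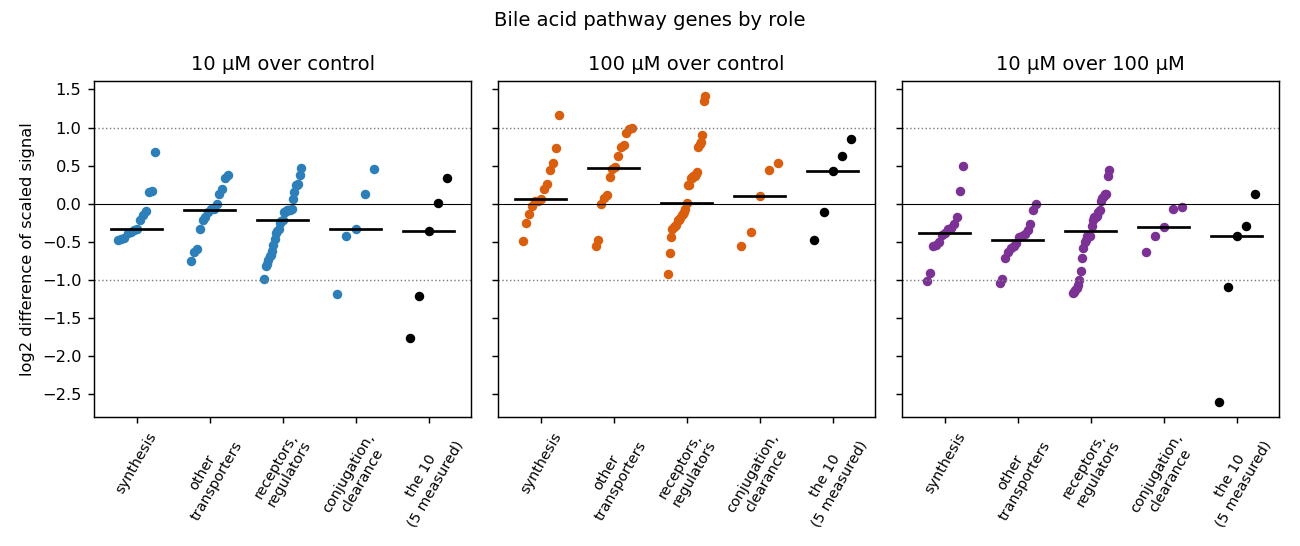
Log2 difference of the scaled signal for the measured genes of the bile acid pathway list by role, and for the 5 measured genes of the 10, in 3 comparisons; each point is a gene, bars are medians and dotted lines mark 2-fold. The SLC10A1 points at -1.76 and -2.61 lie below every gene of the list.

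In 3 other gene lists, 0 were over 2-fold below control with 10 μM, where 1.61% of all genes were. At that share few or none would be counted in lists of this size. GSTA2 of the pathway list at -1.19 lay next to NR1H4 at -1.21. Among 27 measured plasma protein genes the median was 0.13 and the lowest was ALB at -0.74. Of 15 apolipoprotein and lipid transport genes the lowest was MTTP at -0.73, with a median of 0.08. Of 16 other genes of the solute carrier and ABC families the lowest was SLC22A3 at -0.95, with a median of -0.24. With 100 μM the median was 0.61 for plasma proteins, 0.50 for apolipoproteins and 0.40 for the transporter families. Beside these stood 0.43 for the 5 bile acid genes and 0.10 over all genes. With no scaling the last 2 medians were 0.18 and -0.15, and the 3 other lists were not recomputed.

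The values of SLC10A1 and NR1H4 were recomputed under 13 other ways of processing, of which 5 could not change a value of the 5 measured genes. Each of these genes has 1 probe, well above background on all arrays, and the authors' table of the series held the same intensities. SLC10A1 stayed over 2-fold below control with 10 μM in all 13, from -1.78 to -1.20 on the log2 scale. The smallest gap came with normexp, a model-based background correction. NR1H4 ran from -1.23 to -1.12 for the same comparison. Between the doses SLC10A1 ran from -2.68 to -1.91 and NR1H4 from -1.17 to -0.79, so NR1H4 fell on either side of 2-fold there.

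**Figure D5:**
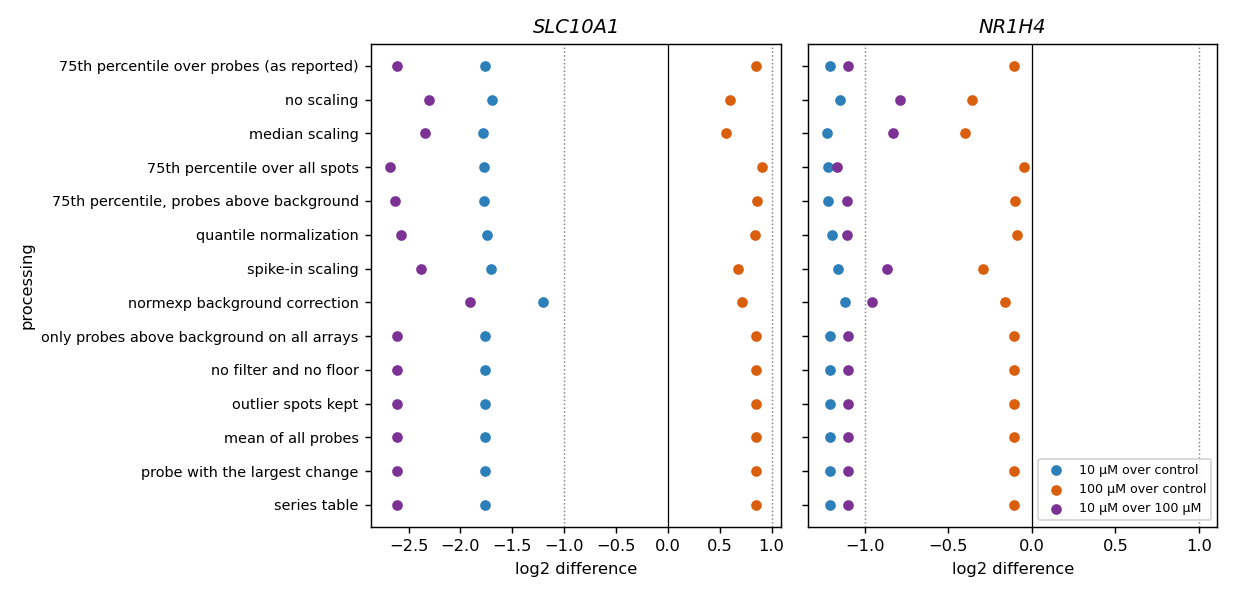
Log2 difference of SLC10A1 and NR1H4 in the 3 comparisons under the processing used and 13 alternatives, with dotted lines at 2-fold. For 10 μM over control all points lie below -1, from -1.78 to -1.20 for SLC10A1 and from -1.23 to -1.12 for NR1H4.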

How the data were processed

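HepG2 RNA was hybridized to 1-color Agilent arrays, 3 on 1 slide, with 1 array per dose. Scanner files were deposited by the authors. In them, Feature Extraction (version 10.7.3.1 in the submitters' processing notes and file headers) had subtracted background and detrended each spot intensity, without scaling between arrays. Their table of the whole series held the same intensity for all 44495 spots of each array.

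The deposited intensity was averaged over the spots of a probe without outlier spots, divided by the 75th percentile of its array over 34127 probes (514, 536 and 432 in control, low-dose and high-dose cells) and put on a log2 scale. A fold change needed the brighter array well above background, and the dimmer signal was raised to the lowest such signal on its array. A gene was its brightest probe. Levels of different genes were not compared, apart from the summed signals of the cell type markers, in which the brightest probe weighs most. The spot-to-spot SD came from the 50 repeated probes nearest in signal, out of 999 spotted 10 times, and assumes that single spots vary alike. The number of arrays limits the precision. Differences are descriptions with a 2-fold threshold, and no test was possible. The genes and lists were chosen with earlier results of these data known. All 10 genes are named, and of the pathway list those past 2-fold and the 3 highest and lowest in each comparison, with others chosen after their values were seen. A gene that this rule selects is not reported here. Probe positions are from the array annotation, and promoters from RefSeq. Alternatives were 6 scalings, normexp on the raw intensity, other dim-probe, outlier-spot and probe rules, the series table and 1.5-fold and 3-fold thresholds. The steps were tested on simulated data. Python 3.11.15, pandas 2.3.3, numpy 2.4.6, matplotlib 3.10.9, R 4.3.3 and limma 3.58.1 were used.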

Additional observations from a re-analysis of the deposited data

How the results depend on the processing

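Of 195 values of single genes over 13 alternatives, 40 moved by more than the spot-to-spot SD. A change of sign counted as reversed only where the reported value was past 2-fold, and 0 of those values reversed. Among the smaller values, NR0B2 between the doses ran from -0.37 to 0.02, and ABCB4 with 10 μM over control from -0.02 to 0.07. The low-dose calls of SLC10A1 and NR1H4 against control held at 2-fold under the 8 alternatives that moved a value of any of the 5 measured genes. Among these 8, keeping outlier spots left the values of SLC10A1 and NR1H4 equal. The other 5 alternatives could not change a value of the measured genes, and 1 of the 2 calls passed 3-fold. Scaling mattered most for the high dose, because the median of all genes between the doses was -0.11 as reported, 0.20 with no scaling, 0.16 with median scaling and 0.12 with spike-in scaling. The count of the 10 genes lower with 10 μM than with 100 μM went from 2 to 1 with no scaling, median scaling, spike-in scaling, normexp and the 3-fold threshold, and their median from -0.42 to -0.11 with no scaling, -0.16 with median scaling, -0.20 with spike-in scaling and -0.50 with the percentile over all spots. At the high dose over control their median went from 0.43 to 0.18, 0.14 and 0.26 with no, median and spike-in scaling and to 0.34 with normexp, and at 1.5-fold 2 genes were higher in place of 0.

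For the pathway list between the doses, the 8 genes lower became 0 with no scaling, median scaling, spike-in scaling and at 3-fold, 3 with quantile normalization, 1 with normexp and 16 at 1.5-fold, and the median of -0.41 became -0.10, -0.15 and -0.19 with no, median and spike-in scaling and -0.49 with all spots. At the high dose over control the list's median of 0.19 turned to -0.10, -0.14 and -0.02 with no, median and spike-in scaling and was 0.10 with quantile normalization. The 3 genes higher there became 2 with no scaling or median scaling, where CYP8B1 was lost, 5 with all spots or the mean of all probes, 0 with normexp and at 3-fold, 8 with no filter on dim probes and 14 at 1.5-fold, and the 0 lower became 1 with no scaling, median scaling, spike-in scaling, normexp and no filter and 2 at 1.5-fold. At the low dose over control the 1 gene lower became 2 with median scaling, all spots or the probe with the largest change, 0 with normexp and at 3-fold, 3 with no filter and 11 at 1.5-fold, and the 0 higher became 3 with no filter and 1 at 1.5-fold. Over all genes, the 1148 higher and 622 lower at the high dose than in control cells became 637 and 1076 with no scaling, 589 and 1185 with median scaling and 385 higher with normexp. Between the doses 610 higher and 663 lower became 1002 and 288 with no scaling and 917 and 313 with median scaling, and the 564 higher and 268 lower with 10 μM than in control cells became 253 and 86 with normexp. With no filter on dim probes, the higher and lower counts were 3245 and 1054 for 100 μM over control, 937 and 2558 between the doses and 1248 and 956 for 10 μM over control. The cause of these shifts beyond the change of scale was not tested.

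No paired analysis was possible because each dose has 1 array, and no array was left out for the same reason. With 1 slide for all 3 arrays there was no slide effect to fit. Signal over background limits SLCO1B1, SLCO1B3, ABCB11, FGF19 and BAAT, for which no difference under the lowest signal well above background was measurable.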
